A study of Homo sapiens with 2 samples.

Results

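A total of 1970 of the 6142 ZNF676 peaks (32.1%) lay in introns of protein-coding genes. A peak was placed there when its midpoint fell inside a protein-coding gene, in no exon of a protein_coding transcript and more than 500 bp from every transcript start of a protein_coding transcript or of a lncRNA gene (GENCODE release 44 lifted to GRCh37). The score of a peak was not used to choose it. The remaining ZNF676 peaks were 2396 outside protein-coding genes, 1456 at promoters, 216 in exons and 104 at lncRNA starts. The peaks came from HEK293T cells, a human embryonic kidney line, that had been transduced with ZNF676 or ZNF728 carrying a triple HA tag (ZNF676-3HA, ZNF728-3HA). Both lines were selected with puromycin (1 µg/ml, 7 days), induced with doxycycline (1 µg/ml) and fixed with formaldehyde (1%, 10 min), so that both proteins were overexpressed from a transgene. Chromatin was precipitated through the HA tag and trimmed with exonuclease (ChIP-exo), with 1 library per protein. Since no library was repeated, no value has a replicate check, and the p-values below compare peaks or copies within the ZNF676 library.

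ZNF676 belongs to the KRAB zinc finger proteins. Their zinc fingers read DNA sequence, mostly within transposable elements, and their KRAB domain recruits KAP1 (TRIM28), a scaffold for histone methyltransferases and heterochromatin proteins. LTR12C is the long terminal repeat of the endogenous retrovirus ERV9 and can act as a promoter or enhancer. Many genes carry old retroviral copies in their introns, in either orientation. MACS, the peak caller, gave every peak a score, which by convention is -10 times the log10 of a p-value computed against input chromatin. The peak lists used here give neither counts of reads nor summits, so that depth was not analysed here and the midpoint of a peak stands for its position.

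The intron peaks that lay on copies similar to LTR12C carried a short shared stretch, which is shown first because copies with and without a peak differed in it. The LTR12C copy amplified in the study (chr6:52651110-52652658, plus strand, GRCh37) served as the reference. Per the paper, its cloned loci were drawn at random from ChIP-seq peaks that went with KAP1 peaks. The reference was thus taken from bound loci and is not a neutral standard for bound and unbound copies. Positions are counted from 1 at the 5′ end of the amplified sequence, which need not be the first base of the LTR. Of the intronic copies with a peak, 13 aligned at position 15 and 83 at position 22. The following lines compare 31 bases, from position 30 on and read in the direction of the LTR, between intronic copies with and without a peak. The base at position 46 is in capitals. The first 4 lines are copies with the highest scores.
PPM1D, chr17:58690810-58690840, plus strand: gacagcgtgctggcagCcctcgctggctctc
UBE2K, chr4:39720648-39720678, minus strand: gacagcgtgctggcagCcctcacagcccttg
TLR5, chr1:223290795-223290825, minus strand: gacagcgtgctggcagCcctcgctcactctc
OOSP4B, chr11:59788214-59788244, minus strand: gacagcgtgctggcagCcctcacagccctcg
Both intronic copies that held a peak although the base at position 46 differed (C46T, reference base first) are given next.
MFSD8, chr4:128885918-128885948, minus strand: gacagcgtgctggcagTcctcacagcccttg
VWA3B, chr2:98755293-98755323, plus strand: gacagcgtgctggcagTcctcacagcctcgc
The next 4 lines are the copies without a peak that were most like the reference among those with another base at position 46, and all 4 carried C46T.
KCNAB1, chr3:155817083-155817113, plus strand: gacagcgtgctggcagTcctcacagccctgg
IQSEC1, chr3:13221081-13221111, plus strand: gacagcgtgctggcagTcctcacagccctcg
TENM1, chrX:124289835-124289865, minus strand: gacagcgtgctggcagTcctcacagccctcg
RHPN2, chr19:33527371-33527401, plus strand: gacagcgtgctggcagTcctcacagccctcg
The last line is a copy among those most like the reference that had no peak although it kept C at position 46, and its base at position 36 differed from the reference (G36A).
TMOD1, chr9:100336327-100336357, plus strand: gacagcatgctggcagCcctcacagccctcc
The copies in this comparison were picked after their values had been seen and serve as examples.

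Intron peaks lay on LTR12C-like copies far more often than the length of these copies would give. The paper reports the 5′ extension in LTR12C, LTR12D and LTR12E, and the copies were not sorted by subfamily here. By sequence similarity, 2483 copies in the genome were LTR12C-like and had the 5′ extension, meaning that at least 50% of the first 600 bp of the reference aligned. At least 50% of the peak lay inside such a copy for 95 of the 1970 intron peaks (4.82%, exact 95% interval 3.92 to 5.86%). The copies covered 0.0638% of the eligible intron bases, which gives 1.26 expected peaks and a 75.6-fold enrichment (one-sided exact binomial test, adjusted p = 9.10e-140 over 12 tests). Among the intron peaks that reached the median score of all ZNF676 peaks (95.1) the share was 10.5% (86 of 819) and the enrichment 165-fold. Intervals here and below cover the sampling of peaks or copies only.

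The share on LTR12C-like copies was lower in introns than outside protein-coding genes, where it was 275 of 2396 peaks (11.5%, interval 10.2 to 12.8%; Fisher's exact test, adjusted p = 2.66e-15). It was higher than at promoters, where 1 of 1456 peaks lay on a copy (0.0687%, interval 0.00174 to 0.382%; Fisher's exact test, adjusted p = 1.16e-21). With the peaks that reached the median score alone, the share in introns was 11.9 percentage points lower than outside genes and 10.4 points higher than at promoters. The copies themselves were occupied at like rates. Of 526 intronic copies with the extension 94 held a peak (17.9%, interval 14.7 to 21.4%), against 271 of 1815 copies outside protein-coding genes (14.9%, interval 13.3 to 16.7%), a difference of 2.94 percentage points (Fisher's exact test, adjusted p = 0.122). No difference was thus detected between them.

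The 95 peaks on copies scored far higher than the other intron peaks. A score of at least 200 was reached by 54 of the 95 (56.8%, interval 46.3 to 67.0%) and by 67 of the 1875 peaks off copies (3.57%, from 2.78 to 4.52%; Fisher's exact test, adjusted p = 7.30e-45). Their median score was 218, from 80.3 to 957, and their median width was 564 bp, against 91.8 and 280 bp over all intron peaks. The midpoint of the peak lay at a median of 128 bp along the reference (quartiles 101 and 174 bp), and 77 of 95 midpoints lay within the first 200 bp. For the 275 peaks on copies outside protein-coding genes the median was 137 bp (quartiles 97.5 and 193 bp).

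**Figure D1:**
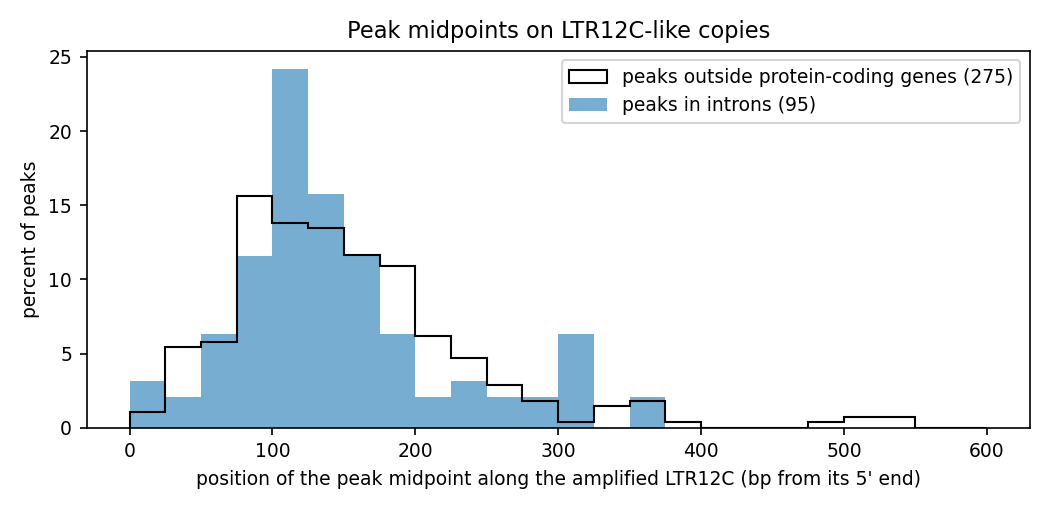
Histogram of the midpoints of ZNF676 peaks on LTR12C-like copies, in bp from the 5′ end of the amplified LTR12C (bins of 25 bp, percent of peaks), for 95 peaks in introns (filled) and 275 outside protein-coding genes (line). Both groups pile up in the first 200 bp, and 1 intron peak and 2 others beyond 600 bp are not drawn.

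Copies were bound in both orientations relative to the host gene. The LTR read in the direction of the gene in 47 of the 95 peaks (median score 177) and against it in 48 (median score 229). Among copies, 48 of 94 with a peak (51.1%, interval 40.5 to 61.5%) and 184 of 431 without a peak (42.7%, interval 38.0 to 47.5%) were in the sense of the gene, and the difference of 8.37 percentage points did not pass the test (Fisher's exact test, adjusted p = 0.184). It was 5.17 points for copies more than 2000 bp from a transcript start. The 95 peaks lay in 94 different genes. Their distance from the nearest transcript start had a median of 28014 bp (628 to 325479 bp), 4 lay within 2000 bp of a start and none touched an exon of a coding transcript.

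The highest-scoring intron peak on a copy was in intron 1 of 5 of PPM1D, a phosphatase that dampens the p53 response (chr17:58690635-58691525, score 957, sense orientation, 81.3% of the peak in the copy). It was followed by intron 1 of 6 of UBE2K, a ubiquitin-conjugating enzyme (chr4:39720299-39720937, score 874, antisense). The last intron of TLR5, the receptor for bacterial flagellin, held a peak of score 791 in the sense orientation (chr1:223290024-223290918). OOSP4B, of a family of oocyte-secreted proteins, held a peak of score 717 in its first intron (chr11:59787744-59788492, antisense). The peak in THSD1, a transmembrane protein with a thrombospondin domain, scored 716 (chr13:52982321-52983043, sense) and lay 2053 bp from a transcript start. The copies in these 5 genes were in either orientation. The next 5 were in SNTG1, a syntrophin (653), CHRNA6, a nicotinic acetylcholine receptor subunit (645), EPHB1, an ephrin receptor kinase (635), LTBP1, which binds latent TGF-beta (600), and PCNX2 (599).

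Intronic copies with a peak differed from those without most at position 46. The base of each copy was compared with the reference over 600 positions. At position 46 the reference C was present in 86 of 88 aligned copies with a peak (97.7%) and in 127 of 360 without (35.3%; Fisher's exact test with Benjamini-Hochberg adjustment over 600 positions, adjusted p = 1.99e-27). Of the unbound copies, 230 had C46T. An adjusted p below 0.05 was reached at 59 of the 600 positions (9.83%), with the reference base more frequent in bound copies at 39 and less frequent at 20. After position 46, the lowest p-values were at position 394 (81.7 against 43.1%), position 36 (97.7 against 68.2%), position 97 (76.3 against 40.0%) and position 52 (98.9 against 77.7%). Copies descend from common ancestors and are not independent, so that these p-values are too small, and position 46 was known from earlier work on these data. Whether these bases follow the LTR12 subfamily of a copy was not tested. Bound copies were only slightly more like the reference as a whole, with quartiles of identity of 78.0 and 81.1% against 77.6 and 80.5% over the aligned part. Because the reference was drawn from bound loci, this identity and the counts of 39 and 20 positions can be tilted by that choice.

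The same counts can be read the other way, as the share of copies that held a peak. Peaks were more frequent on copies with C at position 46 than on copies with another base. A peak was present on 86 of 213 intronic copies with C at position 46 (40.4%, exact interval 33.7 to 47.3%) and on 2 of 233 with another base (0.858%, interval 0.104 to 3.07%). Most copies with C at position 46 thus held no peak. The authors removed reads of low mapping quality, and the copies resemble each other. A copy without a peak is therefore not shown to be unoccupied, and how well reads map to each copy was not tested. Of 78 intronic copies that did not align at position 46, 6 held a peak (7.69%, interval 2.88 to 16.0%). With G at position 36 as well, 84 of 146 copies held a peak (57.5%, interval 49.1 to 65.7%). With C at position 46 but another base at position 36 it was 2 of 65 (3.08%, interval 0.375 to 10.7%), and with G at position 36 but another base at position 46 it was 2 of 183 (1.09%, interval 0.133 to 3.89%). None of 50 copies that differed at both held a peak, which allows a share of up to 7.11%. The combination of C46 and G36 therefore accompanied 84 of the 88 bound copies that aligned at both positions. Position 36 was taken from the intronic copies, and copies outside protein-coding genes gave 232 of 465 (49.9%), 16 of 236 (6.78%), 8 of 684 (1.17%) and 4 of 146 (2.74%) in the same order. Of the 146 intronic copies with both bases, 62 held no peak. Position 36 was paired with position 46 although position 394 had a lower p-value. Over positions 36, 46, 52, 97 and 394, a peak was on 56 of 94 intronic copies with all 5 reference bases (59.6%). With 4 of them it was 20 of 85 (23.5%), with 3 it was 9 of 33 (27.3%) and with 2 it was 2 of 122 (1.64%). Other positions thus went along with peaks as well.

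**Figure D2:**
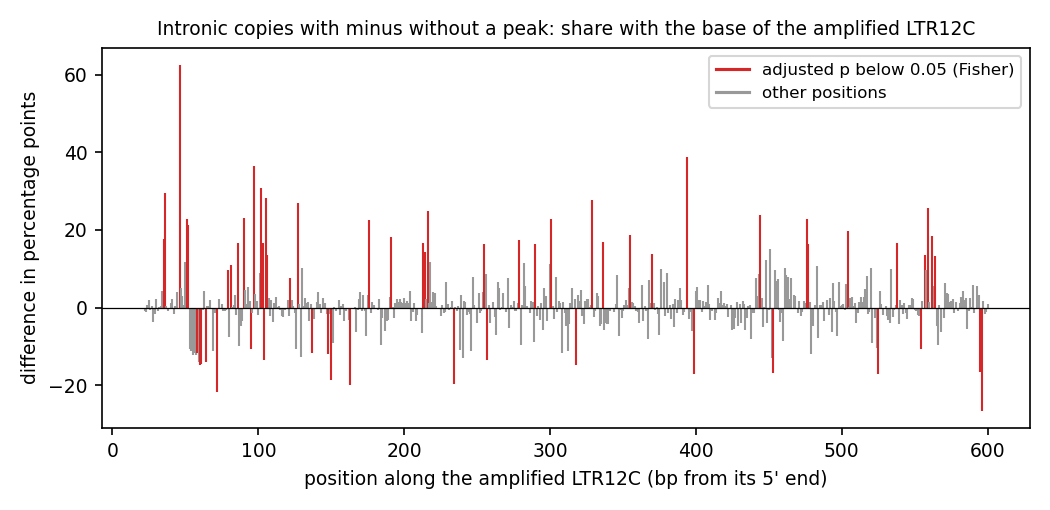
Difference, in percentage points, in the share of intronic LTR12C-like copies that carry the reference base, copies with a ZNF676 peak minus copies without, by position along the amplified LTR12C. Positions with at least 50 aligned bound copies are drawn, from position 22 on. Red lines have an adjusted p below 0.05, and the tallest, at position 46, is 62.4 points high.

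Most intron peaks scored low, and the counts that follow include the 95 peaks on LTR12C-like copies. These copies gave 54 of the 121 peaks with a score of 200 or more. A score below 100 was found for 1288 of the 1970 peaks, a score of 100 to 200 for 561 and a score of 200 or more for 121 (6.14%, interval 5.12 to 7.29%). The last share was smaller than outside protein-coding genes (205 of 2396, 8.56%, interval 7.47 to 9.75%; Fisher's exact test, adjusted p = 0.00346) and at promoters (200 of 1456, 13.7%, interval 12.01 to 15.6%; Fisher's exact test, adjusted p = 1.95e-13). With a threshold of 100 in place of 200 the shares were 34.6% in introns, 39.0% outside genes and 61.7% at promoters. Promoter peaks were also wider, with a median of 672 bp. To describe what else the intron peaks held, each was put in the first of 6 classes that applied, namely LTR12C-like copy (95 peaks), a word with a run of A (28), rDNA-like (9), GC content of at least 60% within 100 bp of the midpoint (165), Alu-like (593) and other (1080). The classes were chosen after the data had been seen.

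The make-up of the peaks changed with the score. Below 100, LTR12C-like copies made up 0.854% of the peaks (interval 0.427 to 1.52%) and Alu-like peaks 34.4% (31.8 to 37.1%). At 200 or more, LTR12C-like copies made up 44.6% (35.6 to 53.9%), GC-rich peaks 20.7% (13.8 to 29.0%), the A-run word 9.09% (4.63 to 15.7%), rDNA-like sequence 5.79% (2.36 to 11.6%) and Alu-like peaks 1.65% (0.201 to 5.84%). The 22 remaining high-scoring peaks (18.2%) had none of these features.

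**Figure D3:**
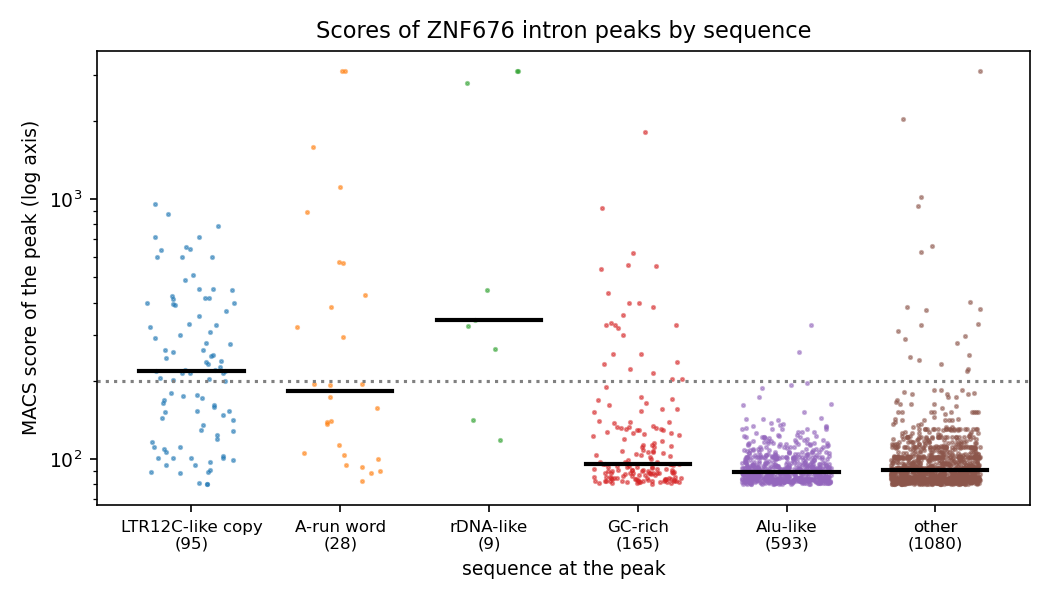
MACS scores of the 1970 ZNF676 intron peaks on a log axis, by the sequence at the peak (number of peaks in brackets). Each point is a peak, black bars are medians and the dotted line marks a score of 200. The medians are 218 on LTR12C-like copies and 89.6 for Alu-like peaks, where the Alu lies within 250 bp of the midpoint.

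The highest scores did not fall on LTR12C-like copies. None of the 10 highest-scoring intron peaks lay on an LTR12C-like copy, and their scores ran from 1114 to 3100, the highest value in the list. At 3100 were peaks in introns of PMF1, a kinetochore protein, which overlaps the readthrough gene PMF1-BGLAP (chr1:156186217-156186754), of MAML3, a Notch coactivator (chr4:140958360-140958487), of PALB2, the partner of BRCA2 in homologous recombination (chr16:23650687-23651094), of CDH11, a cadherin of mesenchymal cells (chr16:65158669-65158785), and of MYO1D, an unconventional myosin (chr17:31149381-31150150). They were followed by GCNT1, a glycosyltransferase of O-glycans (2789, chr9:79186546-79187027), CBY1, an antagonist of beta-catenin that also acts at the cilium base (2036, chr22:39053128-39053900), IQANK1 (1811), DNAI3, an intermediate chain of axonemal dynein (1591, chr1:85517421-85517521), and WASF1, a subunit of the WAVE complex that directs actin assembly (1114, chr6:110435968-110436220). Of these 10, 4 held the A-run word, 3 were rDNA-like, 1 was GC-rich and 2, CDH11 and CBY1, were in the class other. The CDH11 peak was 117 bp wide with a GC content of 36.8%. The CBY1 peak was 773 bp wide, with a GC content of 52.2% at its midpoint and in its flanks.

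A word of 12 letters, CTTGAAAAAAAA, marked 4 of these 10 peaks and is shown because it recurs among the highest scores. Among 12-letter words on both strands it ranked first at the midpoints of 1868 intron peaks. These touched no sequence similar to the reference, with or without the 5′ extension. Words were ranked by the excess over the mean of both flanks, divided by the square root of that mean plus 1. Other words, such as TAAAAATACAAA (224 midpoints against 60 and 65 in the flanks), had a larger excess in number. It was present within 100 bp of the midpoint in 23 of them and in none of the windows 1000 bp upstream or downstream. Over the whole intron peak with 50 bp on each side it was found in 28 peaks, and 0.0488% of 5745732 windows of the same length as at the midpoint, laid end to end over eligible introns, held it. The lines show the word in 3 of these peaks with 24 bases on each side, and capitals mark it together with the letters before it that match the most common ones.
MAML3, chr4:140958368-140958427, plus strand, score 3100: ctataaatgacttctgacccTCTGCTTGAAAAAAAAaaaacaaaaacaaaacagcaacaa
DNAI3, chr1:85517404-85517463, plus strand, score 1591: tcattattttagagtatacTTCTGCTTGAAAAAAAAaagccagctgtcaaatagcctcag
WASF1, chr6:110435974-110436033, plus strand, score 1114: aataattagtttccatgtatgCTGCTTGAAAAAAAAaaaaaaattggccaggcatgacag
Each of these peaks read the word after TCTG, CTG or TTCTG.

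The letters in front of the word are the most common ones in these 28 peaks, so that a larger share of matching sites in peaks follows in part from how they were chosen, and the shares are a description. With up to 4 letters added, the share of intron sites in a peak was larger with each letter. It was 28 of 3049 for the 12 letters (0.918%, interval 0.611 to 1.32%), 23 of 338 with G before them (6.80%, interval 4.36 to 10.0%), 16 of 137 with TG (11.7%, interval 6.82 to 18.3%), 11 of 37 with CTG (29.7%, interval 15.9 to 47.0%) and 6 of 11 with TCTG (54.5%, interval 23.4 to 83.3%). With TTCTG it was smaller, 2 of 5 (40.0%, interval 5.27 to 85.3%). The 16 peaks with at least 2 matching letters had a median score of 407 (88.6 to 3100), and 11 of them reached 200. The 12 peaks with fewer matching letters had a median score of 105 (82.7 to 194), and none reached 200. The word was read on the plus strand in 19 peaks and on the minus strand in 9. The same letters end the read-through sequence of a standard Illumina adapter, after which sequencers commonly call A, and the part of adapter sequence in these peaks was not tested. Besides MAML3, PALB2, DNAI3 and WASF1, those with scores above 500 were in B3GAT2, a glucuronyltransferase (890), CRADD, an adaptor of apoptotic signalling (574), and DET1, a component of ubiquitin ligases (566). The 28 peaks were 1.42% of the intron peaks, and 29 peaks outside protein-coding genes (1.21%) held the word as well. It was also found in 1 promoter peak, in 1 exon peak and in 2 of the 248 ZNF728 peaks (0.806%).

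**Figure D4:**
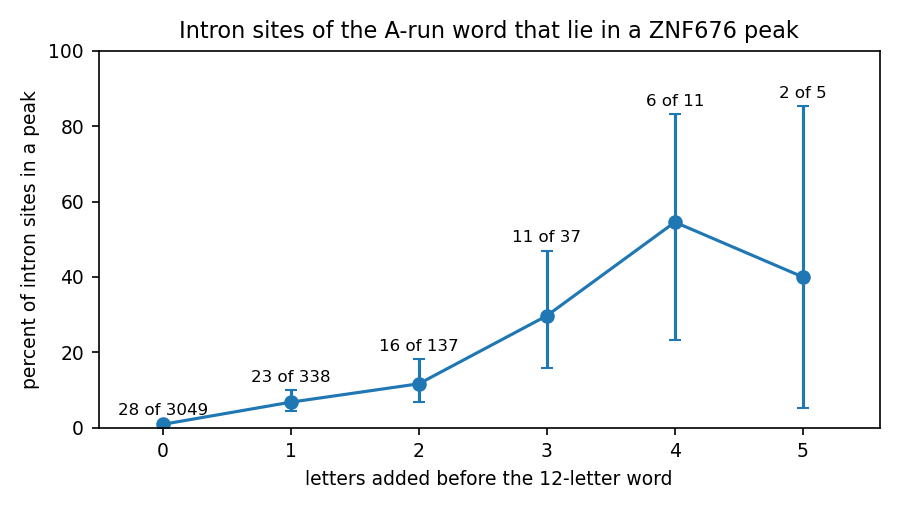
Percent of all eligible intron sites of the word that lie in a ZNF676 intron peak (with 50 bp on each side), against the number of letters added in front of the word, with exact 95% intervals and the counts. The share rises from 0.918% with no letter added to 54.5% with 4, and rests on 5 sites with 5 letters.

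A small number of intron peaks resembled ribosomal DNA, the repeated genes for ribosomal RNA. They aligned over at least 100 bp with part of an unplaced contig of the assembly. This part was 7000 bp on each side of a match to a 5.8S rRNA pseudogene (81.1% identity over 159 bp). The class thus counts similarity to this contig, and no full rDNA unit was used. There were 9 such peaks, in PMF1 (3100), MYO1D (3100), GCNT1 (2789), ANKRD30BL (446), PHKB (344), DLG2 (326), UNC45B (266), PID1 (141) and HFM1 (118). Of these, 7 scored 200 or more, and their median score was 344. They had a median GC content of 62.2% against 41.8% in their flanks, and the peaks in DLG2 and UNC45B were also Alu-like. Outside protein-coding genes 12 peaks were of this kind, at lncRNA starts 1, and at promoters and in exons none.

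Many GC-rich intron peaks lay near transcript starts. Of the 165 peaks of this class 81 (49.1%) were 500 to 2000 bp from a transcript start and 78 of the 140 in canonical introns (55.7%) were in the first intron, against 10.7% and 29.3% over all intron peaks. Their median GC content was 71.6% and a median of 19 CpG lay within 100 bp of the midpoint, against 7 in windows of the same length 1000 bp to each side. The highest-scoring members after IQANK1 were in IGF1R, the receptor of insulin-like growth factor 1 (926, chr15:99192956-99194117, intron 1, 1769 bp from a start), CUX1, a homeodomain transcription factor (622, chr7:101459849-101460612, 675 bp from a start), KLHL11 (559, 709 bp from a start) and NFATC1, a calcium-regulated transcription factor (554, 34253 bp from a start).

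GC content was raised over intron peaks as a whole. It was higher within 100 bp of the midpoint than in the mean of windows of that length 1000 bp to each side in 1510 of 1956 intron peaks without a tie (77.2%, interval 75.3 to 79.0%; two-sided sign test, exact binomial, adjusted p = 6.42e-134), with medians of 48.3% and 41.3%. For the 1875 peaks off LTR12C-like copies the medians were 47.8% and 41.0%. Part of the peaks lay on or near sequence like Alu, the most abundant short interspersed element, which derives from 7SL RNA. The window searched for Alu was wider than many peaks, so that the alignment can lie outside the peak. The part of Alu in the raised GC content was not tested. An alignment of at least 50 bp with 7SL RNA was present within 250 bp of the midpoint in 612 intron peaks (31.1%), and in 371 (18.8%) and 352 (17.9%) of the windows 1500 bp upstream and downstream. The share of peaks with such an alignment was 24.3% outside protein-coding genes and 0.481% at promoters.

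Within introns, the peaks leaned towards first introns and towards transcript starts, which need not be those of the host gene. Of the 1970 peaks 211 (10.7%, interval 9.38 to 12.2%) lay 500 to 2000 bp from a transcript start, where 6.50% of the eligible bases lie, a ratio of 1.65 (two-sided exact binomial test, adjusted p = 4.61e-12). GC-rich peaks gave 81 of these 211. In the other classes the share near a start was at most 7.78% (class other), with 6.91% for Alu-like peaks and 4.21% on LTR12C-like copies. First introns held 507 of the 1731 peaks in introns of canonical transcripts (29.3%, interval 27.2 to 31.5%) and 24.2% of the bases, a ratio of 1.21 (two-sided exact binomial test, adjusted p = 1.50e-06). For peaks more than 2000 bp from a start this ratio was 1.12 and still passed the same exact test (adjusted p = 0.0189). Without the peaks that hold the A-run word the ratios were 1.66 and 1.21. Within 500 bp of an exon of a coding transcript lay 235 peaks (11.9%, interval 10.5 to 13.4%) and 11.5% of the bases (ratio 1.03, two-sided exact binomial test, adjusted p = 0.597). When peaks that touch such an exon were left out, which removes peaks close to exons by construction, the ratio was 0.723 (exact binomial test, adjusted p = 8.90e-06), so that no direction can be given.

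**Figure D5:**
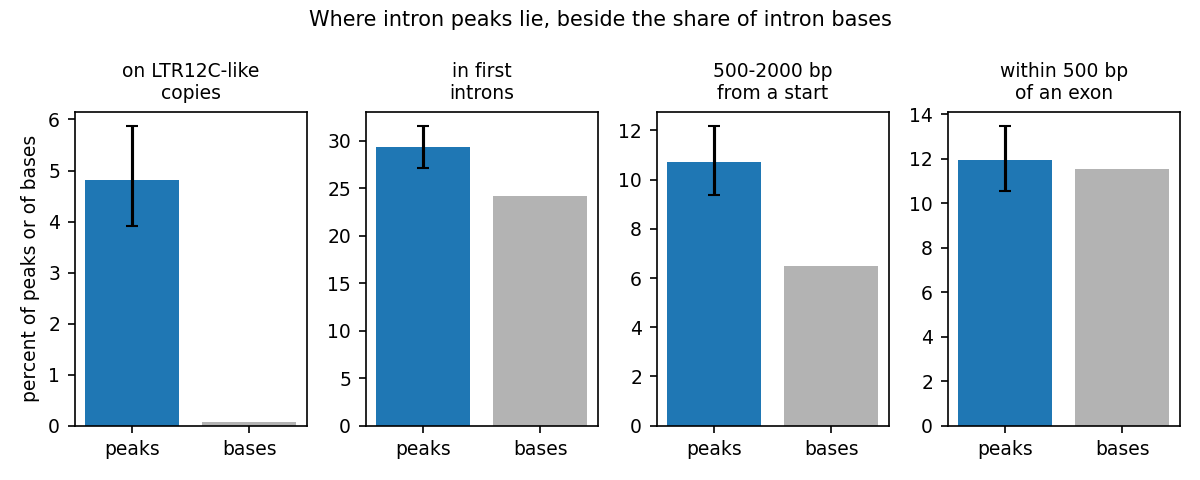
Share of ZNF676 intron peaks (blue, with exact 95% intervals) and of eligible intron bases (grey) in 4 kinds of place, in percent, each panel with its own axis from 0. The shares are 4.82 and 0.0638% on LTR12C-like copies, 29.3 and 24.2% in first introns, 10.7 and 6.50% at 500 to 2000 bp from a start, and 11.9 and 11.5% within 500 bp of an exon.

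The intron label held for most peaks on closer annotation. The peak reached into an exon of a coding transcript in 77 cases (3.91%), and its midpoint lay in an exon of a non-coding transcript type of a protein-coding gene in 57 (2.89%). Within 500 bp of the start of a transcript of such a gene of any type lay 59 (2.99%). The PALB2 peak is one of these, 46 bp from the start of a transcript that is not of the coding type and 1661 bp from the nearest start that the rule used. Peaks just inside the limit were in PDS5B (512 bp from a start, score 134), KAT6A (516 bp, 189), ENSG00000288591 (519 bp, 82.6) and SBF1 (521 bp, 132). Just outside it were peaks in ZBTB17 (498 bp, 122), PCYT1A (494 bp, 80.6), ARSB (492 bp, 87.6) and RBL2 (488 bp, 82.2).

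Intron peaks were spread over the genome at 1.65 per Mb of eligible intron (1193 Mb). The density ranged from 1.13 per Mb on chromosome 22 to 2.09 per Mb on chromosome 16, and chromosome Y, with 2.57 Mb, held none. At least 1 peak was found in 1737 of 18845 protein-coding genes with eligible intron bases (9.22%), and 1458 of these genes had a single peak. The share followed intron length. It was 0.318% among the 1885 genes with the shortest introns (median 1.07 kb in all) and 39.1% among the 1885 with the longest (median 265 kb), while the density was 2.84 and 1.52 per Mb.

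The genes with most intron peaks had long introns. DLG2, a scaffold of the postsynaptic density, held 6 peaks in 2144 kb of intron, with scores of 400.1, 326.2, 297.6, 111.3, 86.8 and 83.5. CNTNAP2, a neuronal adhesion molecule of the neurexin family, held 6 in 2290 kb, from 81.1 to 101.4. TBC1D5, a Rab GTPase-activating protein, held 5 in 1256 kb, of which 1 scored 214.0 and the others 82.1 to 92.5. DACH1, a transcription cofactor of eye and limb development, held 5 in 423 kb (11.8 per Mb), from 82.0 to 95.7. CUX1 held 4 in 447 kb (8.95 per Mb), with 622.1 as the highest and the others from 82.7 to 89.3. In CNTNAP2 and DACH1 no peak scored above 101.4.

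Gene lists are described by counts beside the background of 9.22% and 1.66 peaks per Mb over all genes, without a test. The length of their introns is given because the share rises with it. Axonemal dynein genes, which drive the beating of cilia, held an intron peak in 7 of 23 cases (30.4%), with a median of 123 kb of intron per gene against 24.8 kb over all genes, and 2.13 peaks per Mb. DNAI3 scored 1591 and holds the A-run word; the others (DNAH14, DNAI4, DNAH10, DNAH8, DNAH11 and DNAH2) scored between 85.4 and 127. Cilium assembly genes, for intraflagellar transport and the BBSome, held a peak in 10 of 45 cases (22.2%, 15 peaks, 4.08 per Mb, median intron 50.9 kb). These were BBS7, IFT43, IFT81, BBS2, BBS5, BBS9, BBS4, RPGRIP1L, IFT80 and DYNC2H1, and the highest score among them was 114 (BBS7). In BBS9 a peak of score 80.3 lay on an LTR12C-like copy (chr7:33258333-33258669).

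Genes of the KAP1 co-repressor and of heterochromatin held a peak in 5 of 27 cases (18.5%, 3.51 per Mb, median intron 40.9 kb). PPHLN1, a subunit of the HUSH silencing complex, had 2, of which 1 lay on an LTR12C-like copy and scored 452 (chr12:42667573-42668148) and 1 scored 116. The peaks in EHMT1, a histone H3 lysine 9 methyltransferase (110), DNMT1, the maintenance DNA methyltransferase (104), CBX1, a heterochromatin protein (88.9), and DNMT3L, a cofactor of de novo methylation (82.1), scored lower. Germline genes had a peak in 2 of 40 cases (5.00%, 1.06 per Mb, median intron 40.9 kb). These were TDRD7, of the tudor family (319, GC-rich, 550 bp from a start), and MSH4, a meiotic recombination factor (136, with the A-run word). Cadherins had one in 5 of 23 cases (21.7%, 0.752 per Mb, median intron 131 kb), with CDH11 at 3100 and CDH12, CDH9, CDH13 and CDH3 between 83.0 and 102. Myosins had one in 4 of 39 cases (10.3%, 0.943 per Mb, median intron 94.4 kb), with MYO1D at 3100 and 94.4, MYO6 at 161, MYO1C at 93.3 and MYH10 at 80.8. Zinc finger genes named ZNF and a number had one in 14 of 471 cases (2.97%, 0.939 per Mb, median intron 19.2 kb). ZNF438 had the highest score of these (330) and its peak lay on an LTR12C-like copy (chr10:31191950-31192441). The peak in ZNF777 scored 232 and was GC-rich, and the other 12 genes (ZNF519, ZNF155, ZNF790, ZNF141, ZNF660, ZNF536, ZNF45, ZNF492, ZNF304, ZNF521, ZNF367 and ZNF683) had scores between 83.5 and 152.

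The intron peaks were also compared with those of ZNF728, a related protein from the same cluster of zinc finger genes on chromosome 19. Of the 248 ZNF728 peaks 63 lay in introns by the same rule, and 3 of the 1970 ZNF676 intron peaks overlapped a ZNF728 peak (0.152%, exact interval 0.0314 to 0.444%). Seen from ZNF728 these were 3 of its 248 peaks (1.21%), and the short list limits how many can be shared. They were in TBX18, a T-box transcription factor (chr6:85429822-85430037, score 87.3 for ZNF676 and 253 for ZNF728), in ENSG00000285253 (chr15:57177943-57178229, 182 and 141) and in PALB2 (3100 and 118). The scores of different libraries are not on a common scale. None of the 3 touched an LTR12C-like copy, and the PALB2 peak holds the A-run word. For peaks more than 2000 bp from a transcript start the count was 1.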

How the data were processed

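ChIP-exo peaks of ZNF676 and ZNF728 (1 library each, HEK293T) were used as deposited. Per the paper's methods, the authors mapped reads to hg19 (GRCh37) with Bowtie2, which the submitters' processing notes name too. They removed reads of low mapping quality and reads in blacklisted or high-input regions. Peaks were called with MACS per library against a total input that had been derived earlier. Scores were taken from the authors' lists as deposited and compared only within ZNF676, where all exceed 80. The MACS version is not given in the sources used here, and the sequencing instrument differs between labels and paper. The lists give no depth per peak.

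Peaks were placed by midpoint on GENCODE release 44 lifted to GRCh37. Eligible intron bases are those where a midpoint could lie, without undetermined bases. The LTR12C amplified in the study was located by its primers. Copies were found with blastn 2.17.0 (E-value at most 1e-10, alignments at most 300 bp apart joined). Those with at least 50% of the first 600 bp aligned were kept. Exact binomial and Fisher tests were adjusted over 12 tests by Benjamini-Hochberg. Named peaks are the 10 highest-scoring in introns and on copies, the 5 genes with most peaks, genes of the lists, peaks shared with ZNF728 and those next to the 500 bp limit. The highest GC-rich, rDNA-like and A-run word peaks were added after their values had been seen. Sequences are from GRCh37, and some of the selected ones are not reported here. Members and lists were chosen with earlier results of these data known. Placement was tested on simulated data. Alternatives changed the score filter, exon and start limits, copy overlap, windows and transcripts. Python 3.11.15, NumPy 2.4.6, pandas 2.3.3, SciPy 1.17.1 and pysam 0.24.0 were used.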

Additional observations from a re-analysis of the deposited data

How the results depend on the processing

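Of 87 alternative values for the 14 results named in the design, 81 had the direction and the test outcome of the reported value or, for counts, were within 1.5 times of it. The share of intron peaks near exons changed direction: its ratio to the share of bases was 1.03 as reported, 0.723 with the whole peak outside coding-transcript exons, 0.862 for peaks more than 2000 bp from a start, 0.895 within 200 bp of an exon and 0.957 without peaks near a start of any transcript type. The first of these removes peaks close to exons by construction, and the cause of the others was not tested. The number of genes with an intron peak was 797 when peaks under the median score were left out, and the number of peaks shared with ZNF728 was 1 at more than 2000 bp from a start, both with fewer peaks by construction. Leaving out peaks that hold the A-run word, or peaks near a start of any transcript type, was chosen after seeing the data. The share of intronic copies with both C46 and G36 that hold a peak was 53.4 to 58.5% under 4 alternatives, also chosen after seeing the data. No paired analysis was possible because each protein had 1 library. No replicate, untagged control list or read count was used here, so that the spread between libraries is unknown and a weak peak below the score limit of the list is missing.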
